A study of Mus musculus with 4 samples.

Results

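The CXC chemokines are small secreted proteins that steer leukocytes, and 10 of their genes were followed here in irradiated and non-irradiated mouse tumors by single-cell RNA sequencing (scRNA-seq): Cxcl1, Cxcl2, Cxcl3, Cxcl5, Ppbp, Cxcl9, Cxcl10, Cxcl12, Cxcl16 and Pf4. They were taken by name, matched by symbol in the gene tables, and found once each among the 18605 genes that all 4 libraries list. The tumors were Lewis lung carcinoma (LLC, a mouse lung carcinoma cell line) grown under the skin of female C57BL/6N mice aged 6 to 8 weeks, to about 100 mm3. In the radiotherapy (RT) group the tumor received hypofractionated radiation, 3 fractions of 8 Gy on days 7 to 9 (24 Gy in total), and in the radiation naive (NT) group it received a mock treatment. All tumors were collected 72 h later. RT1, RT2 and RT3 were libraries of 1 tumor each, whereas NT was 1 library in which 3 tumors were pooled. The spread between non-irradiated tumors is therefore not known, no test between NT and RT was made, and no p-value is given.

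After removal of barcodes with few genes or many mitochondrial transcripts, 9976 cells remained in NT, 15029 in RT1, 14993 in RT2 and 15060 in RT3. The tables held 69667759, 78585759, 108699844 and 85660188 unique molecular identifiers (UMIs, each a counted transcript) in the same order. Pairs of libraries shared between 175 and 274 cell barcodes. Levels are UMIs summed over the cells of 1 kind in 1 library, per 1000000 UMIs of those cells (CPM), and intervals are exact 95% intervals that cover counting error only. Clusters of cells were named from marker genes and are called tumor cells, macrophages, monocytes, neutrophils, dendritic cells, lymphocytes, fibroblasts and endothelial cells for short. Each is a cluster like that cell type. In every class all of its listed markers had UMIs. The most abundant marker was C1qb in macrophages (1483 CPM in NT, against 2931, 3822 and 2420.3 CPM in RT1 to RT3) and S100a8 in neutrophils (3765 CPM in NT, against 8725, 12644 and 7747 CPM in RT1 to RT3). NT held only 20 neutrophils, 18 fibroblasts and 34 endothelial cells, against 124 to 255, 92 to 187 and 32 to 142 in the RT libraries. A cluster led by Lum, Pthlh and Nppc (3703 cells) and a shallow cluster led by Nptxr, Bcat1 and Cenpe (4413 cells) kept no name, and both carried the tumor-cell marker Rhox5 at 872 CPM or more in every library.

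A chemokine of the CXC type binds a receptor on a leukocyte and makes that cell move up its gradient. Cxcl1, Cxcl2, Cxcl3, Cxcl5 and Ppbp act through Cxcr2, the receptor that brings neutrophils into inflamed tissue. Cxcl1 and Cxcl2 are classic target genes of the transcription factor NF-kB. Cxcl9 and Cxcl10 are induced by interferon and act through Cxcr3 on T cells and NK cells, Cxcl12 acts through Cxcr4 and holds cells in bone marrow and stroma, Cxcl16 is a membrane-bound ligand of Cxcr6, and Pf4 is best known as platelet factor 4.

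In the RefSeq annotation of GRCm38.p6 the genes Cxcl5, Ppbp, Pf4, Cxcl3, Cxcl1 and Cxcl2 follow one another on chromosome 5 with Cxcl15 as the only other protein-coding gene among them. Cxcl9 and Cxcl10 lie on the same chromosome with Art3 between them, behind 16 other protein-coding genes, while Cxcl12 is on chromosome 6 and Cxcl16 on chromosome 11. Promoters were found for 8 of the 10 members in that annotation. The libraries themselves are credited with GRCm39 by the submitters' processing notes, so these positions serve for the sequences only. A search of the 250 bases before the start of transcription, on both strands, found the degenerate NF-kB motif in Cxcl1, Cxcl2, Cxcl3 and Cxcl10 and in 5.93% of 32851 promoters. In Cxcl1, Cxcl2 and Cxcl3 the match was the same run, GGGAATTTCC, which 0.0852% of promoters held and which was read from these 3 genes before it was counted. A pair of GAAA with 2 bases between them, a form of the interferon-response element, was found in Cxcl10 alone among the 8 and in 2.98% of all promoters. None of these motifs was found in Cxcl9, Cxcl12, Ppbp or Pf4 within this window. The 4 promoters with matches are shown because they set the neutrophil chemokines beside an interferon-induced one. They lie at chr5:90891095-90891244 (plus strand, Cxcl1), chr5:90903749-90903898 (plus strand, Cxcl2), chr5:90785951-90786100 (plus strand, Cxcl3) and chr5:92348890-92349119 (minus strand, Cxcl10), and each ends at the base before the start. Capitals mark GGGAATTTCC in the first 3, which lies 71 to 62, 97 to 88 and 73 to 64 bases before the start. In Cxcl10 they mark the pair of GAAA (GAAAGTGAAA) at 213 to 204 bases and matches of the NF-kB motif at 159 to 150 and at 104 to 94 bases, the last being a pair of overlapping matches.
Cxcl1: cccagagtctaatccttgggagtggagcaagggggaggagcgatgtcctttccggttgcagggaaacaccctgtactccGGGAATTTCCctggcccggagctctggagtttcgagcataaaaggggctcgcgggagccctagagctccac
Cxcl2: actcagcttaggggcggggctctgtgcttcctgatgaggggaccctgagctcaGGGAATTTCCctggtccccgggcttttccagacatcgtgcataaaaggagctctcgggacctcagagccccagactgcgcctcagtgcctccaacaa
Cxcl3: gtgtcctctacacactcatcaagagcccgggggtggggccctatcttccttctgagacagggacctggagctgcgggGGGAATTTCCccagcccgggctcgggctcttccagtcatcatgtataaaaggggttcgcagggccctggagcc
Cxcl10: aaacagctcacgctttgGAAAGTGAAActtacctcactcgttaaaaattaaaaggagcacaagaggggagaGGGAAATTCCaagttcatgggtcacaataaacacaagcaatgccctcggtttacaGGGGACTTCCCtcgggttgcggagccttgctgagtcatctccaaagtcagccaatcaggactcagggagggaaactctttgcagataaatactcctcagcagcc
A motif match describes the sequence and says nothing of what was bound in these tumors.

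Over all kept cells, Cxcl3, Ppbp, Pf4 and Cxcl12 rose after radiation, by 4.90 to 7.10 times on average, while the abundant Cxcl1 was lower in every RT library and Cxcl2 and Cxcl10 were higher by less than 2 times. A gene was said to rise or fall where every RT library differed from NT by at least 1 on the log2 scale in the same direction. Only genes abundant enough to give 10 UMIs in the least deep library were judged. By this rule of size 4 of the 10 members rose and none fell, beside 4.96% of 14291 genes that rose and 0.301% that fell. The median log2 ratio was 0.60 for the members and 0.00 for all genes. All RT libraries lay above NT for 6 members and below it for 1, beside 33.5% and 32.3% of all genes.

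**Figure D1:**
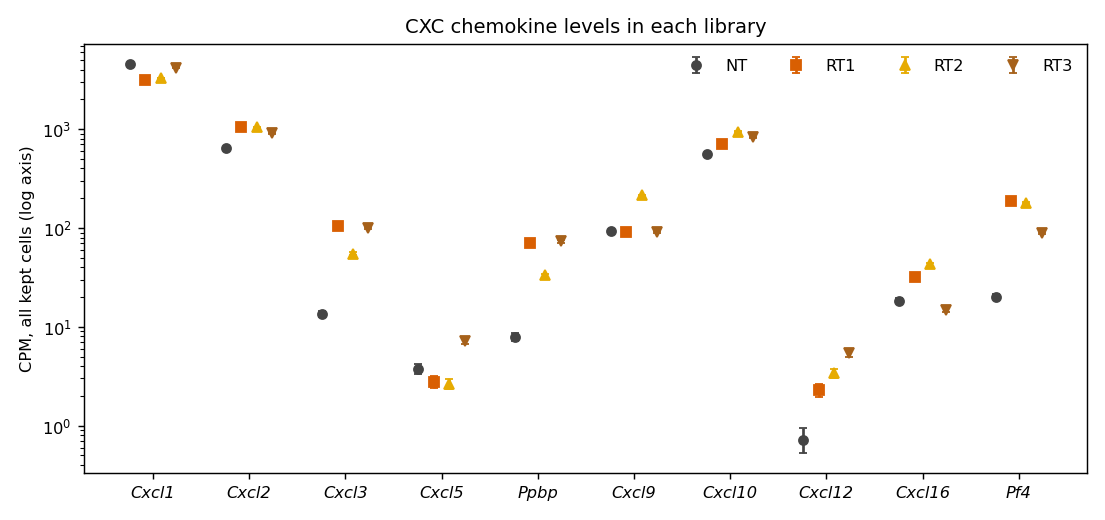
Level of each of the 10 CXC chemokines over all kept cells of each library, in CPM on a log axis, with exact 95% counting intervals that are often smaller than the symbols. For Cxcl3, Ppbp, Cxcl12 and Pf4 the 3 RT libraries stand clear above NT, for Cxcl1 they stand below it, and for Cxcl5, Cxcl9 and Cxcl16 NT lies among them.

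Cxcl3 (ENSMUSG00000029379) stood at 13.5 CPM in NT (934 UMIs, 95% interval of 12.6 to 14.4 CPM), against 104, 55.1 and 101 CPM in RT1 to RT3. Ppbp (ENSMUSG00000029372), also called Cxcl7, stood at 7.88 CPM in NT (546 UMIs, 95% interval of 7.24 to 8.57 CPM), against 71.3, 33.3 and 73.1 CPM in RT1 to RT3. RT2 was the lowest RT library for both genes and still lay above NT by 2.03 (Cxcl3) and 2.08 (Ppbp) on the log2 scale. Pf4 (ENSMUSG00000029373) was measured at 20.3 CPM in NT (1403 UMIs, 95% interval of 19.2 to 21.3 CPM), against 186, 179 and 89.2 CPM in RT1 to RT3, and Cxcl12 (ENSMUSG00000061353) at 0.707 CPM in NT (49 UMIs, 95% interval of 0.523 to 0.935 CPM), against 2.28, 3.39 and 5.37 CPM in RT1 to RT3. The mean log2 ratios were 2.62 ± 0.51 for Cxcl3, 2.82 ± 0.65 for Ppbp, 2.83 ± 0.60 for Pf4 and 2.29 ± 0.62 for Cxcl12 (SD over the RT libraries, n = 3). For Pf4 it was RT3, not RT2, that lay closest to NT, and for Cxcl12 it was RT1. Macrophages made up 8.48% of the cells of NT and 21.8%, 21.3% and 13.5% of those of RT1 to RT3, and fibroblasts 0.180% against 0.612%, 0.867% and 1.24%. In a summed level a shift in the cells present and a change within cells cannot be told apart, so the classes are taken in turn below.

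Cxcl1 (ENSMUSG00000029380), the mouse counterpart of the Gro chemokines, was made mainly by the tumor cells themselves. In tumor cells it stood at 4604 CPM in NT (270223 UMIs, 95% interval of 4587 to 4621 CPM), against 3135, 3238 and 4116 CPM in RT1 to RT3, so that all RT libraries were lower, at a mean log2 ratio of -0.41 ± 0.21 (SD, n = 3), a difference that did not pass the rule of size. These cells held 84.7% (84.6 to 84.8) in NT and 67.8% (67.7 to 68.0), 61.4% (61.2 to 61.5) and 75.4% (75.3 to 75.6) in RT1 to RT3 of the gene's UMIs. The unnamed cluster led by Lum, Pthlh and Nppc had the highest level of any group of cells, 9491 CPM in NT, against 6835, 7392 and 9722 CPM in RT1 to RT3. Its share of the gene's UMIs was 10.8% in NT, against 18.2, 25.0 and 15.9% in RT1 to RT3. Together these groups account for the greater part of Cxcl1 in each library. When each cell was thinned to 1000 UMIs, so that depth was equal, Cxcl1 was detected in 86.1% in NT, against 78.2, 78.1 and 83.2% in RT1 to RT3 of tumor cells, and unthinned in 95.9% in NT, against 92.7, 94.0 and 94.9% in RT1 to RT3. Cells below 1000 UMIs were left out of all shares at equal depth. These were 110, 180, 182 and 335 tumor cells, 135, 507, 400 and 353 macrophages, and 157, 405, 212 and 554 monocytes of NT and RT1 to RT3. Fibroblasts showed the other direction, with 2108 CPM in NT (214 UMIs, 95% interval of 1835 to 2410.4 CPM), against 2841, 3251 and 3648 CPM in RT1 to RT3, every RT library lying above the 18 fibroblasts of NT. Monocytes had 1833 CPM in NT, against 1209, 862 and 1519.6 CPM in RT1 to RT3 and macrophages 2443 CPM in NT, against 2031, 1984 and 2653 CPM in RT1 to RT3. In neutrophils the level was 5114 CPM in NT (144 UMIs, 95% interval of 4313 to 6021 CPM), against 2409, 2093 and 3430.5 CPM in RT1 to RT3.

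The order of classes by mean Cxcl1 level was tumor cells (3773 ± 707 CPM, SD over 4 libraries), neutrophils (3262 ± 1361 CPM) and fibroblasts (3247 ± 404 CPM, 3 libraries with 20 or more cells), and these 3 overlapped. Macrophages followed at 2278 ± 324 CPM (SD, 4 libraries). All their values lay below those of the RT fibroblasts, while the 18 NT fibroblasts lay within the macrophage range. RNA of tumor cells in other barcodes was gauged by Rhox5, a tumor-cell marker. The neutrophil barcodes held Rhox5 at 675 CPM in NT, against 696, 588 and 712 CPM in RT1 to RT3, and tumor cells at 1068 CPM in NT, against 1313, 1205 and 1184 CPM in RT1 to RT3. Scaled by Rhox5, tumor-cell RNA would give 56.9%, 69.0%, 75.5% and 72.1% of the Cxcl1 measured in neutrophils of NT and RT1 to RT3, and 33.4%, 36.5%, 34.1% and 48.0% of that in macrophages. The mean log2 ratio of Cxcl1 in neutrophils was -0.98, and -0.16 once likely doublets (8% of cells, ranked by a simulated-doublet score) were taken out.

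Cxcl2 (ENSMUSG00000058427), a ligand of the same receptor that myeloid cells secrete when activated, was spread over more kinds of cells. In the sum of all kept cells it stood at 650.5 CPM in NT (45054 UMIs, 95% interval of 644 to 656 CPM), against 1049, 1044 and 909 CPM in RT1 to RT3, with every RT library above NT. In macrophages it was nearly level, at 2811 CPM in NT (9570 UMIs, 95% interval of 2755 to 2867 CPM), against 2669, 2746 and 2631 CPM in RT1 to RT3, and in tumor cells it stood at 466 CPM in NT, against 495, 405 and 583 CPM in RT1 to RT3. The RT libraries lay on both sides of NT in tumor cells and just below it in macrophages, at log2 ratios of -0.07, -0.03 and -0.10. The tumor cells' share of Cxcl2 UMIs was 60.7% (60.2 to 61.1) in NT and 31.8% (31.5 to 32.2), 24.0% (23.8 to 24.3) and 49.5% (49.1 to 49.8) in RT1 to RT3, and that of macrophages was 21.2% (20.9 to 21.6) in NT and 41.1% (40.8 to 41.4), 44.8% (44.5 to 45.1) and 24.9% (24.6 to 25.2) in RT1 to RT3. The main source thus differed between libraries, tumor cells in NT and RT3 and macrophages in RT1 and RT2.

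Among the cells with the highest Cxcl2 level, neutrophils had 2699 CPM in NT (76 UMIs, 95% interval of 2127 to 3379 CPM), against 5347, 5555 and 5198 CPM in RT1 to RT3. All RT libraries were higher, 1.99-fold (range 1.93 to 2.06) on average, but RT1 and RT3 were just under the threshold of the rule, at 0.99 and 0.95 on the log2 scale. Monocytes had 3638 CPM in NT, against 3691, 3481 and 2822 CPM in RT1 to RT3, with RT1 above NT and RT2 and RT3 below it. The mean levels were 4700 ± 1342 CPM in neutrophils, 3408 ± 401 CPM in monocytes and 2714 ± 80.2 CPM in macrophages (SD, 4 libraries), and only the last pair did not overlap. In lymphocytes Cxcl2 rose, from 163 CPM in NT to 339, 352 and 424 CPM in RT1 to RT3, but lymphocyte sub-clusters led by Cp and Col6a2 and by Lyz2 and Ccl6, genes not typical of lymphocytes, carried part of it. Without them the mean log2 ratio was 0.94 and Cxcl2 no longer passed. In fibroblasts it rose from 59.1 CPM in NT (6 UMIs, 95% interval of 21.7 to 129 CPM) to 273, 433 and 362 CPM in RT1 to RT3, where tumor-cell RNA scaled by Rhox5 would give 94.4% of the NT level and 30.6%, 18.5% and 36.0% of the RT levels. The fibroblast class itself differed in content between NT and RT. All 6 pericyte and smooth muscle markers had UMIs in it, and their summed level was 6640.0 CPM in NT, against 1194, 96.3 and 481 CPM in RT1 to RT3. The most abundant of them was Rgs5, at 3744 CPM in NT, against 711, 6.42 and 323 CPM. Of 9 endothelial markers 8 had UMIs there (Cldn5 was at 0), summing to 394 CPM in NT, against 103, 69.0 and 76.1 CPM. A simulated-doublet score placed 38.9% of the NT fibroblasts, and 18.5%, 13.1% and 15.5% of those of RT1 to RT3, among the 8% of all cells most like doublets. The part of these differences in any fibroblast result was not tested. Dendritic cells had 259.5 CPM in NT, against 1309.9, 437 and 692 CPM in RT1 to RT3 and endothelial cells 73.3 CPM in NT, against 242, 261 and 134 CPM in RT1 to RT3. All RT libraries lay above NT in both, without passing the rule. In endothelial cells Cxcl2 had 13 UMIs in NT and passed the filter only through the RT libraries. In dendritic cells the monocyte markers, led by Plac8, summed to 538 CPM in NT, against 1367, 1426 and 1404 CPM in RT1 to RT3. The neutrophil markers, led by Il1r2, summed to 382 CPM there, against 807, 404 and 507 CPM. In endothelial cells 6 of 9 neutrophil markers had UMIs (Retnlg, Ly6g and Mmp8 were at 0), summing to 5.64 CPM in NT, against 91.8, 147 and 227 CPM in RT1 to RT3, with Hdc the most abundant. Of 8 monocyte markers 6 had UMIs there (Hp and F10 were at 0), led by Thbs1 and summing to 552 CPM, against 871, 676 and 1854 CPM, and Rhox5 stood at 45.1 CPM in NT, against 228, 104 and 277 CPM in RT1 to RT3. The part of all these markers in the Cxcl2 levels of both classes was not tested.

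Cxcl3 was a gene of the myeloid cells, and its level was highest in neutrophils and monocytes. In neutrophils it rose, from 178 CPM in NT (5 UMIs, 95% interval of 57.7 to 414 CPM) to 2213, 1000.1 and 1852 CPM in RT1 to RT3. The NT value came from 5 UMIs in 20 cells, and it passed the filter on abundance through the RT libraries. In this class 2 of the 4 members that passed the filter rose, Cxcl3 and Cxcl10, beside 5.20% of 442 genes that rose and 2.26% that fell. Nothing is read from this count, which was 0 with 30 expected UMIs. The 9 listed neutrophil markers, led by S100a8, summed to 11436 CPM in NT, against 27330, 34915 and 24249 CPM in RT1 to RT3 in this class, and the 10 macrophage markers, led by Cd63, to 462 CPM, against 1404, 1426 and 1249 CPM. The 8 monocyte markers, led by Thbs1, summed to 3445 CPM, against 5795, 4247 and 4528 CPM. Their part in the neutrophil results was not tested. Monocytes had 373 CPM in NT (320 UMIs, 95% interval of 334 to 417 CPM), against 1163, 456 and 1458 CPM in RT1 to RT3 and macrophages had 147 CPM in NT (499 UMIs, 95% interval of 134 to 160.0 CPM), against 291, 162 and 574 CPM in RT1 to RT3. All RT libraries were above NT in both classes, RT3 the highest and RT2 the nearest to NT, so that RT2 kept Cxcl3 from passing in monocytes. The 9 neutrophil markers summed to 135 CPM in monocytes of NT, against 463, 492 and 543 CPM in RT1 to RT3, and their part in this difference was not tested. The log2 ratio of Cxcl3 in RT2 was 0.29 in monocytes. In RT1 and RT3 it was 1.64 and 1.96. At 1000 UMIs per cell Cxcl3 was detected in 11.7% (8.49 to 15.6) in NT and 26.8% (24.4 to 29.3), 13.6% (12.0 to 15.3) and 25.6% (23.0 to 28.2) in RT1 to RT3 of monocytes, and unthinned in 13.6% in NT, against 30.1, 17.2 and 28.9% in RT1 to RT3. In tumor cells the share was under 1% in each library. Of the gene's UMIs macrophages held 53.4% in NT, against 45.3, 49.9 and 49.0% in RT1 to RT3, monocytes 34.3% in NT, against 42.7, 37.5 and 42.0% in RT1 to RT3 and neutrophils 0.535% in NT, against 9.28, 8.31 and 4.59% in RT1 to RT3.

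In dendritic cells, where NT had no Cxcl3 UMI, the level was 118, 49.2 and 142 CPM in RT1 to RT3. Read against 3 UMIs in NT, the level was at least 3.48-fold higher in each RT library. Cxcl3 was the only 1 of 6 members to pass in this class, where 1.83% of 3173 genes rose and 1.07% fell, and since NT was at 0 it could pass the filter only by being high in RT. It no longer passed with 30 expected UMIs, at a Leiden resolution of 0.4 or without RT3. Markers of monocytes moved with it: 6 of 8 had UMIs in the dendritic class (Chil3 and Hp were at 0), with Plac8 the most abundant, and they summed to 538 CPM in NT, against 1367, 1426 and 1404 CPM in RT1 to RT3. The 9 dendritic markers, led by Ccr7, summed to 4068 CPM, against 2372, 2127 and 2525 CPM. Their part in the Cxcl3 result was not tested. The gene was also at 0 in NT lymphocytes and at 49.5, 18.1 and 9.22 CPM in RT1 to RT3, at least 2.88-fold higher in each. Without the sub-clusters named above it no longer passed there.

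Cxcl5 (ENSMUSG00000029371), the ligand known from epithelial and stromal cells, was scarce. Its level over all kept cells was 3.75 CPM in NT (260 UMIs, 95% interval of 3.31 to 4.24 CPM), against 2.78, 2.66 and 7.21 CPM in RT1 to RT3, with NT inside the range of the RT libraries. Fibroblasts had the highest level, 88.9 ± 66.6 CPM (SD, 3 libraries). Macrophages had 32.9 CPM in NT (112 UMIs, 95% interval of 27.1 to 39.6 CPM), against 9.96, 7.68 and 31.9 CPM in RT1 to RT3, so that the log2 ratios were -1.72 in RT1 and -2.10 in RT2 while RT3 was almost equal to NT.

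Ppbp was found in macrophages and monocytes. In macrophages it stood at 88.1 CPM in NT (300 UMIs, 95% interval of 78.4 to 98.7 CPM), against 336, 149.6 and 636 CPM in RT1 to RT3. Every RT library was above NT, by 3.60-fold (range 1.70 to 7.21), but RT2 with a log2 ratio of 0.76 did not reach the threshold. In monocytes, 165 CPM in NT (141 UMIs, 95% interval of 138 to 194 CPM), against 367, 125 and 524 CPM in RT1 to RT3 were measured, and here RT2 lay below NT. Without RT2 it passed in both classes. Macrophages held 54.9% (50.7 to 59.2) in NT and 76.1% (75.0 to 77.3), 76.5% (75.0 to 77.8) and 74.7% (73.5 to 75.7) in RT1 to RT3 of all Ppbp UMIs. At equal depth it was detected in 3.66% (2.40 to 5.31) in NT and 10.1% (9.00 to 11.3), 5.98% (5.13 to 6.93) and 13.9% (12.3 to 15.7) in RT1 to RT3 of macrophages (unthinned in 6.86% in NT, against 14.9, 10.6 and 17.9% in RT1 to RT3), and in tumor cells in 0.273% in NT, against 0.292, 0.282 and 0.326% in RT1 to RT3.

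In macrophages the level of Pf4 rose from 385 CPM in NT (1311 UMIs, 95% interval of 364 to 406 CPM) to 1061, 991 and 943 CPM in RT1 to RT3, that is 2.59-fold (range 2.45 to 2.75), with log2 ratios of 1.46, 1.36 and 1.29 in RT1 to RT3. Pf4 was the single member to rise in macrophages and none fell, beside 2.52% of 10064 genes that rose and 1.15% that fell. The median log2 ratio over the 9 members that passed the filter was -0.15 there, and 0.02 over all genes. At 1000 UMIs per cell Pf4 was detected in 25.6% (22.4 to 29.0) in NT and 57.1% (55.2 to 59.0), 51.3% (49.5 to 53.2) and 49.3% (46.9 to 51.8) in RT1 to RT3 of macrophages, and unthinned in 47.8% in NT, against 74.0, 71.5 and 63.3% in RT1 to RT3. In tumor cells it was detected in 0.0757% in NT, against 0.496, 0.382 and 0.2% in RT1 to RT3. Macrophages held 93.4% in NT, against 92.2, 94.0 and 90.8% in RT1 to RT3 of all Pf4 UMIs, and their mean level, 845 ± 310 CPM (SD, 4 libraries), did not overlap with that of monocytes, 181 ± 88.4 CPM.

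The 10 listed macrophage markers were higher beside Pf4, at a summed level of 7824 CPM in NT, against 12413, 13446 and 9920 CPM in RT1 to RT3 in macrophages, and their part in the Pf4 result was not tested. Platelets are the textbook source of Pf4 and Ppbp. The 6 platelet and megakaryocyte markers, led by Clec1b, all had UMIs in macrophages and summed to 1.76, 1.04, 0.919 and 0.548 CPM there in NT and RT1 to RT3. In monocytes, where Itga2b, Gp1ba and Gp1bb were at 0, they summed to 1.17, 0.339, 0.810 and 0 CPM, and their part in the Pf4 and Ppbp levels was not tested. In monocytes Pf4 rose as well, from 73.5 CPM in NT (63 UMIs, 95% interval of 56.5 to 94.0 CPM) to 280.1, 153 and 216 CPM in RT1 to RT3, but not without integration of the libraries or with a minimum of 500 genes per cell. Scaled by C1qb, RNA of macrophages would give 165%, 83.0%, 155% and 76.5% of the Pf4 measured in monocytes. The same scaling gave 56.3%, 101%, 105% and 93.4% of the Pf4 in tumor cells, where the level rose from 0.409 CPM in NT (24 UMIs, 95% interval of 0.262 to 0.608 CPM) to 2.88, 3.17 and 1.77 CPM in RT1 to RT3. It gave 65.5%, 120% and 156% of that in lymphocytes of RT1 to RT3, where 80.0, 31.1 and 10.2 CPM stood against 0 in NT. Pf4 was the only 1 of 9 members to rise in tumor cells, beside 3.13% of 12908 genes that rose and 0.178% that fell. In lymphocytes 3 of 6 members rose, Cxcl2, Cxcl3 and Pf4, beside 1.77% of 7287 genes that rose and 0.878% that fell, and none of them passed without the sub-clusters led by Cp and Col6a2 and by Lyz2 and Ccl6. Cxcl3 and Pf4, both at 0 in NT, passed the filter there only through the RT libraries, so nothing is read from that count.

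**Figure D2:**
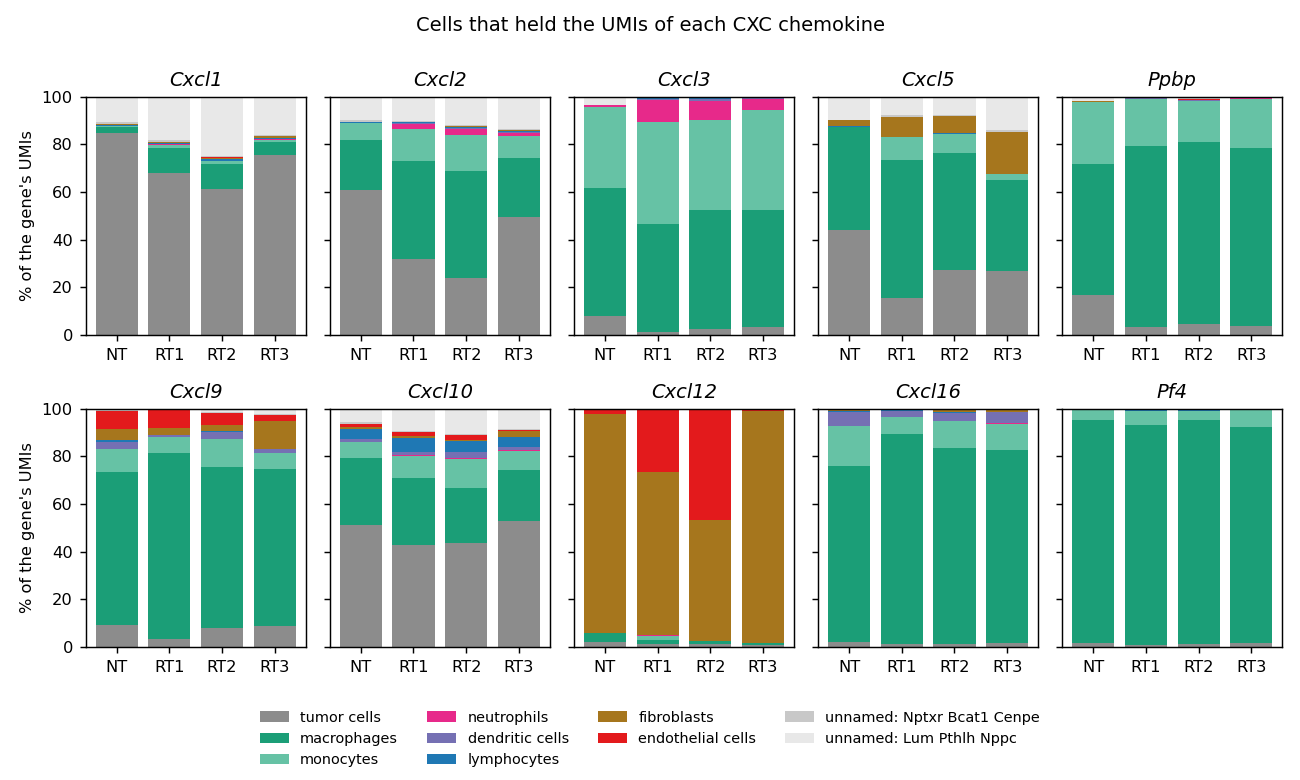
Share of the UMIs of each CXC chemokine that came from each class of cells, in percent of the gene's UMIs in that library (y axis), with 1 bar per library (x axis) and unnamed clusters shown as such. Tumor cells fill most of the Cxcl1 bars, macrophages most of the Cxcl9, Cxcl16, Ppbp and Pf4 bars, and fibroblasts with endothelial cells the Cxcl12 bars.

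Of the interferon-induced pair, Cxcl9 (ENSMUSG00000029417) was lower in every RT library in macrophages, monocytes, fibroblasts and endothelial cells. Macrophages had 1229 CPM in NT (4186 UMIs, 95% interval of 1192 to 1267 CPM), against 439.7, 848 and 692 CPM in RT1 to RT3 and monocytes 715 CPM in NT (613 UMIs, 95% interval of 659.7 to 774 CPM), against 155, 551 and 212 CPM in RT1 to RT3. The mean log2 ratios were -0.95 ± 0.49 in macrophages and -1.45 ± 0.95 in monocytes (SD, n = 3), and neither passed the rule. In macrophages RT2 and RT3 fell short, at -0.54 and -0.83, and in monocytes only RT2, at -0.38. Among classes with at least 20 cells, endothelial cells led by level in all 4 libraries, with 2818 CPM in NT (500 UMIs, 95% interval of 2576 to 3076 CPM), against 1425, 1731 and 1653 CPM in RT1 to RT3, and their lowest value was above the highest value of fibroblasts in RT, 1336 CPM. In fibroblasts Cxcl9 fell, from 2985 CPM in NT (303 UMIs, 95% interval of 2658 to 3341 CPM) to 766, 980.4 and 1336 CPM in RT1 to RT3, the NT value coming from the 18 cells that were rich in pericyte markers. With TMM scaling and with equal weight per cell Cxcl9 no longer passed, at mean log2 ratios of -1.39 and -0.94 in place of -1.58. There 1 of 5 members rose, Cxcl2, and 1 fell, Cxcl9, beside 6.62% of 1602 genes that rose and 6.68% that fell. Cxcl2, with 6 UMIs in NT, passed the filter there only through the RT libraries and no longer passed with 30 expected UMIs, so nothing is read from that count. Summed over all kept cells, however, Cxcl9 stood at 93.9 CPM in NT, against 91.2, 213 and 90.3 CPM in RT1 to RT3, with RT2 high and the other RT libraries almost equal to NT. Macrophages were its main source in every library, with 64.4% (63.2 to 65.6) in NT and 77.9% (76.9 to 78.8), 67.6% (67.0 to 68.2) and 65.8% (64.8 to 66.9) in RT1 to RT3. At equal depth the share of macrophages with Cxcl9 was 37.1% (33.6 to 40.8) in NT and 15.3% (13.9 to 16.7), 25.8% (24.2 to 27.5) and 18.6% (16.7 to 20.5) in RT1 to RT3. Unthinned it was 47.8% in NT, against 22.8, 38.5 and 26.5% in RT1 to RT3. In tumor cells the share at equal depth was 0.878% in NT, against 0.555, 2.31 and 0.952% in RT1 to RT3.

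Cxcl10 (ENSMUSG00000034855) went up in some classes and down in others. In macrophages it stood at 3218 CPM in NT (10959 UMIs, 95% interval of 3158 to 3279 CPM), against 1250.3, 1280.1 and 2085 CPM in RT1 to RT3 and in monocytes at 3046 CPM in NT (2611 UMIs, 95% interval of 2931 to 3165 CPM), against 1672, 2496 and 2287 CPM in RT1 to RT3. All RT libraries were lower, the mean log2 ratio being -1.11 ± 0.42 in macrophages, where RT1 and RT2 passed 1 and RT3 did not. Tumor cells showed the other direction, with 338 CPM in NT (19839 UMIs, 95% interval of 333 to 343 CPM), against 449, 661 and 566 CPM in RT1 to RT3 and every RT library higher by 0.41 to 0.97 log2 units. Lymphocytes had 1736 CPM in NT, against 4009, 2167 and 2936 CPM in RT1 to RT3 and dendritic cells 2123 CPM in NT, against 2924, 3419 and 3288 CPM in RT1 to RT3. The RT libraries lay above NT in both of these. In neutrophils Cxcl10 rose from 355 CPM in NT (10 UMIs, 95% interval of 170.3 to 653 CPM) to 847, 1546 and 1244 CPM in RT1 to RT3. With equal weight per cell it no longer passed, at a mean log2 ratio of 0.81 in place of 1.73, nor without the likely doublets, at 0.87. That NT value rests on 10 UMIs, and tumor-cell RNA scaled by Rhox5 would give 60.1% of it and 28.1%, 20.9% and 27.3% of the RT values. Endothelial cells had 3359 CPM in NT, against 2991, 2835 and 3163 CPM in RT1 to RT3 and fibroblasts 2571 CPM in NT, against 1695, 1183 and 2543 CPM in RT1 to RT3, with every RT library below NT.

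Tumor cells held 51.2% in NT, against 42.6, 43.5 and 52.7% in RT1 to RT3 of all Cxcl10 UMIs and macrophages 28.3% in NT, against 28.4, 23.1 and 21.6% in RT1 to RT3. Endothelial cells (3087 ± 225 CPM), dendritic cells (2938 ± 582 CPM), lymphocytes (2712 ± 997 CPM) and monocytes (2375 ± 568 CPM) could not be ranked by mean level, because neighbours in this order overlapped. At 1000 UMIs per cell Cxcl10 was detected in 53.6% (49.8 to 57.3) in NT and 31.9% (30.2 to 33.7), 33.6% (31.8 to 35.4) and 41.2% (38.9 to 43.6) in RT1 to RT3 of macrophages and in 17.3% (16.4 to 18.2) in NT and 18.1% (17.2 to 19.1), 26.9% (25.8 to 28.0) and 22.0% (21.1 to 22.9) in RT1 to RT3 of tumor cells. Unthinned the shares were 62.3% in NT, against 40.9, 49.5 and 49.5% in RT1 to RT3 for macrophages and 42.5% in NT, against 41.1, 57.6 and 47.7% in RT1 to RT3 for tumor cells. At equal depth both directions were seen in the share of cells as well as in the level, but in tumor cells the intervals of NT and RT1 overlapped, and unthinned RT1 lay just below NT.

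**Figure D3:**
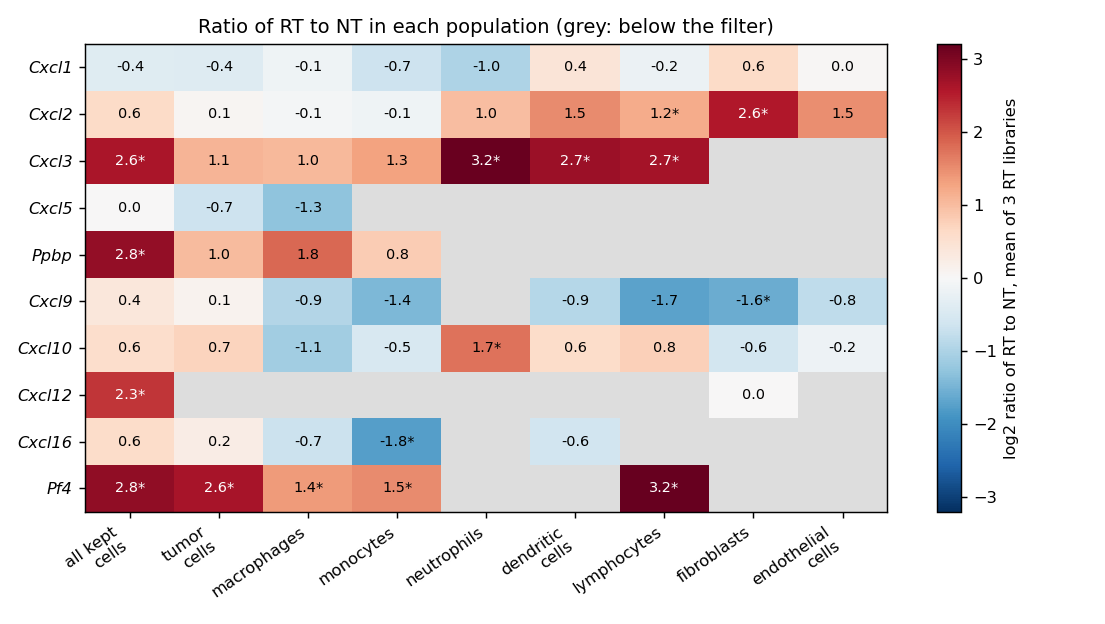
Mean log2 ratio of RT to NT (colour, 3 RT libraries) for each CXC chemokine (rows) in all kept cells and in each class (columns), grey where the gene was below the abundance filter. Cxcl9 is negative in macrophages, monocytes, fibroblasts and endothelial cells, Cxcl10 is negative in macrophages and positive in tumor cells, and Pf4 is positive wherever it was abundant enough.

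A list of 19 other interferon-induced genes was read in the same classes. Over all kept cells 3 of 19 rose and none fell (beside 4.96% and 0.301% of all genes), namely Ifit1 (37.9 CPM in NT, against 89.1, 111 and 86.5 CPM in RT1 to RT3), which binds viral RNA, Ifit3 (16.0 CPM in NT, against 46.3, 55.2 and 41.0 CPM in RT1 to RT3) and the transcription factor Irf7 (5.13 CPM in NT, against 13.6, 30.8 and 12.1 CPM in RT1 to RT3). In tumor cells 2 of 19 rose and none fell (beside 3.13% and 0.178% of all genes), Ifit1 (14.2 CPM in NT, against 43.2, 77.6 and 50.9 CPM in RT1 to RT3) and Ifit3 (7.53 CPM in NT, against 20.7, 30.7 and 24.9 CPM in RT1 to RT3). In macrophages none of 18 rose or fell. Their median log2 ratio was -0.31 there, with 7 genes lower and 3 higher in every RT library (beside 29.3% and 33.4% of all genes), while in tumor cells the median was 0.24. The medians differed between libraries, at -0.62, 0.09 and -0.15 in macrophages and at -0.16, 1.15 and 0.02 in tumor cells of RT1 to RT3, so that RT2 alone was far above 0 in tumor cells. None of 18 passed in monocytes, where the median was 0.27 and 9 genes were higher in every RT library, beside 40.6% of all genes. In fibroblasts 1 of 11 rose and 2 fell, beside 6.62% and 6.68% of all genes, in the class whose NT cells were rich in pericyte markers. Ifit3 rose (59.1 CPM in NT, against 217, 149 and 187 CPM in RT1 to RT3), passing the filter only through the RT libraries, whereas the interferon-induced GTPases Gbp4 (167 CPM in NT, against 14.7, 46.5 and 42.6 CPM in RT1 to RT3) and Iigp1 (1034 CPM in NT, against 225, 469 and 399 CPM in RT1 to RT3) fell. Gbp4 passed the filter only through NT, so nothing is read from the count in this class. None of the listed genes passed in neutrophils, dendritic cells, lymphocytes or endothelial cells.

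Cxcl16 (ENSMUSG00000018920) was a product of dendritic cells and macrophages. It fell in monocytes, from 243 CPM in NT (208 UMIs, 95% interval of 211 to 278 CPM) to 60.3, 107 and 57.6 CPM in RT1 to RT3, a mean log2 ratio of -1.76 ± 0.50. Without integration of the libraries Cxcl16 did not pass in monocytes. Markers of dendritic cells were lower beside it. Of 9 such markers 8 had UMIs in monocytes (Siglech was at 0), led by Fscn1. They summed to 113 CPM in NT, against 36.9, 43.1 and 53.5 CPM in RT1 to RT3, and their part in the Cxcl16 result was not tested. In this class 1 of 8 members rose (Pf4) and 1 fell (Cxcl16), beside 3.85% of 6475 genes that rose and 1.08% that fell. Macrophages had 276 CPM in NT (940 UMIs, 95% interval of 259 to 294 CPM), against 176, 206 and 140.4 CPM in RT1 to RT3 and dendritic cells 354 CPM in NT (75 UMIs, 95% interval of 278 to 444 CPM), against 247, 240.1 and 213 CPM in RT1 to RT3. All RT libraries were lower in both classes without passing the rule. At equal depth the share of monocytes with Cxcl16 was 17.5% (13.7 to 22.0) in NT and 5.33% (4.17 to 6.71), 8.5% (7.19 to 9.95) and 5.92% (4.61 to 7.47) in RT1 to RT3 (unthinned 24.0% in NT, against 8.21, 16.7 and 6.65% in RT1 to RT3), and in tumor cells it was 0.0606% in NT, against 0.0730, 0.199 and 0.0626% in RT1 to RT3. Macrophages held 74.0% in NT, against 88.2, 82.0 and 81.0% in RT1 to RT3 of its UMIs. Dendritic cells led by level in every library, and their mean (264 ± 62.0 CPM) overlapped with that of macrophages (200 ± 57.6 CPM). Its level over all kept cells was 18.3 CPM in NT, against 32.3, 42.8 and 14.9 CPM in RT1 to RT3, so that RT1 and RT2 lay above NT and RT3 below it.

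Cxcl12 came from stromal cells. Fibroblasts held 91.8% (80.4 to 97.7) in NT and 68.4% (61.0 to 75.1), 50.4% (45.2 to 55.6) and 97.4% (95.5 to 98.6) in RT1 to RT3 of its UMIs, and endothelial cells 2.04% (0.0517 to 10.9) in NT and 26.0% (19.7 to 33.1), 46.6% (41.4 to 51.8) and 0.219% (0.00554 to 1.21) in RT1 to RT3. In fibroblasts the level was 443 CPM in NT (45 UMIs, 95% interval of 323 to 593 CPM), against 446, 298 and 677 CPM in RT1 to RT3, with NT inside the range of RT. In endothelial cells it was 5.64 CPM in NT (1 UMIs, 95% interval of 0.143 to 31.4 CPM), against 128, 251 and 8.39 CPM in RT1 to RT3, high in RT1 and RT2 and near 0 in NT and RT3, so that the endothelial share set RT1 and RT2 apart from the other libraries. None of the 4 members above the filter passed in endothelial cells, where 1.77% of 1975 genes rose and 1.82% fell.

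The other ligands of the family were scarce. Cxcl14, a chemokine of fibroblasts and epithelium, rose over all kept cells, from 0.390 CPM in NT to 1.27, 0.920 and 2.92 CPM in RT1 to RT3, and in fibroblasts it stood at 217 CPM in NT, against 321, 108 and 367 CPM in RT1 to RT3, NT lying inside the RT range. Cxcl13, the B-cell chemokine, was at 0 in NT and at 0.0901, 0.359 and 0.894 CPM in RT1 to RT3, at least 2.08-fold higher in each against 3 UMIs in NT. It passed the filter only through the RT libraries, so nothing is read from this. In fibroblasts, where it was below the filter, it stood at 0 CPM in NT, against 18.4, 19.3 and 111 CPM in RT1 to RT3. Cxcl15 and Cxcl17 stayed below the filter in all classes, and Cxcl11 was not analysed here.

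On the side of the receptors, Cxcr4, which binds Cxcl12, fell in monocytes, from 1369 CPM in NT (1173 UMIs, 95% interval of 1291 to 1449 CPM) to 326, 532 and 396 CPM in RT1 to RT3, and in neutrophils, from 746 CPM in NT (21 UMIs, 95% interval of 462 to 1140.1 CPM) to 258, 257 and 184 CPM in RT1 to RT3. In neutrophils Cxcr4 passed the filter only through NT. Macrophages had 543 CPM in NT, against 256, 349 and 354 CPM in RT1 to RT3, endothelial cells 524 CPM in NT, against 198, 222 and 285 CPM in RT1 to RT3 and lymphocytes 428 CPM in NT, against 251, 336 and 166 CPM in RT1 to RT3. Every RT library lay below NT in these 3 classes, without passing the rule. In dendritic cells NT was inside the RT range, at 316 CPM in NT, against 292, 553 and 305 CPM in RT1 to RT3. Over all kept cells, where myeloid cells were more frequent after RT, Cxcr4 stood at 54.4 CPM in NT, against 60.9, 99.5 and 48.3 CPM in RT1 to RT3.

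Cxcr2 was detected best in neutrophils, at 319.6 CPM in NT (9 UMIs, 95% interval of 146 to 607 CPM), against 249, 389.6 and 297 CPM in RT1 to RT3, where NT rested on 9 UMIs and lay inside the RT range. Its level over all kept cells was higher in every RT library, at 1.83 CPM in NT, against 3.18, 3.85 and 3.62 CPM in RT1 to RT3. Of its 127 UMIs in NT, 111 were in tumor cells, where the level was 1.89 CPM in NT, against 2.5, 2.48 and 3.25 CPM in RT1 to RT3. Cxcr3, the receptor of Cxcl9 and Cxcl10, stood at 38.4 CPM in NT (36 UMIs, 95% interval of 26.9 to 53.2 CPM), against 19.0, 24.6 and 10.2 CPM in RT1 to RT3 in lymphocytes, and Cxcr6, the receptor of Cxcl16, at 177 CPM in NT (166 UMIs, 95% interval of 151 to 206 CPM), against 96.5, 129 and 54.3 CPM in RT1 to RT3. Both were lower in every RT library without passing, and RT3 was the lowest for Cxcr3, Cxcr6 and Cxcr4. Mast cell and basophil markers, all 5 with UMIs in lymphocytes and led by Cma1, summed to 10.7 CPM in NT, against 156, 59.3 and 2645 CPM in RT1 to RT3, and their part in these levels was not tested. In macrophages Cxcr3 rose, but at a low level, from 1.17 CPM in NT (4 UMIs, 95% interval of 0.320 to 3.01 CPM) to 6.85, 3.19 and 5.89 CPM in RT1 to RT3, and it passed the filter only through the RT libraries. Ackr3, a scavenger of Cxcl12, rose in fibroblasts from 118 CPM in NT (12 UMIs, 95% interval of 61.1 to 207 CPM) to 836, 879 and 575 CPM in RT1 to RT3, the class in which pericyte markers were highest in NT. In tumor cells it was lower in every RT library, at 68.6 CPM in NT, against 56.7, 51.5 and 47.1 CPM in RT1 to RT3. Ackr1, which presents chemokines on venules, stood at 78.9 CPM in NT, against 5.57, 49.6 and 75.5 CPM in RT1 to RT3 in endothelial cells, with RT1 low. It was below the filter there and in fibroblasts, where it was at 0 in NT and at 66.3, 101 and 104 CPM in RT1 to RT3. Over all kept cells Ackr1 passed the filter and was higher in every RT library, at 0.217 CPM in NT, against 0.270, 1.03 and 0.929 CPM. Cxcr1 and Cxcr5 were below the filter in all classes.

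Of 17 listed genes of the NF-kB pathway and its inflammatory targets, Il1a and the adhesion molecule Icam1 rose over all kept cells, at 4.84 CPM in NT, against 15, 17.2 and 10.8 CPM in RT1 to RT3 and 8.00 CPM in NT, against 41.8, 68.3 and 28.0 CPM in RT1 to RT3, and none fell (beside 4.96% and 0.301% of all genes). In macrophages 1 of 17 rose and 1 fell, beside 2.52% and 1.15% of all genes. There Icam1 rose (45.8 CPM in NT, against 166, 232 and 150.4 CPM in RT1 to RT3) while the cytokine gene Il1b fell (2248 CPM in NT, against 539.5, 889 and 774 CPM in RT1 to RT3). The same was seen in monocytes, with 45.5 CPM in NT, against 142, 244 and 116 CPM in RT1 to RT3 for Icam1 and 12357 CPM in NT, against 4189, 4616 and 3793 CPM in RT1 to RT3 for Il1b, and there Nfkbiz, a co-regulator of NF-kB, fell too (1362 CPM in NT, against 599, 558 and 665 CPM in RT1 to RT3), so that 1 of 17 rose and 2 fell, beside 3.85% and 1.08% of all genes. Icam1 also rose in dendritic cells, lymphocytes and endothelial cells, as the only listed gene to do so in each (of 16, 15 and 8 above the filter, beside 1.83%, 1.77% and 1.77% of all genes). In lymphocytes the 10 macrophage markers, led by Cd63, summed to 357 CPM in NT, against 773, 729 and 536 CPM in RT1 to RT3. Markers of other cells in dendritic and endothelial cells are given above beside Cxcl2. The part of these markers in the Icam1 results was not tested. In monocytes 14 of 17 listed genes were lower in every RT library and 1 was higher (beside 25.1% and 40.6% of all genes), with a median log2 ratio of -0.59 beside 0.10 for all genes. The list's medians in the other classes (all genes in brackets) lay on both sides of 0. They were -0.32 (0.02) in macrophages, -0.21 (-0.01) in tumor cells, -0.43 (-0.12) in neutrophils and -0.02 (-0.02) in dendritic cells. In lymphocytes, fibroblasts and endothelial cells they were 0.08 (-0.15), 0.13 (-0.16) and 0.69 (-0.10).

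Enzymes and binding proteins that cut, shed or hold CXC chemokines made up a list of 10 genes. The numbers that rose were 2 of 9 above the filter over all kept cells, 1 of 6 in tumor cells, 1 of 7 in macrophages, 2 of 6 in monocytes and 2 of 4 in fibroblasts, beside 4.96%, 3.13%, 2.52%, 3.85% and 6.62% of all genes. None fell in these. The counts of monocytes and fibroblasts include Mmp9 and Dpp4, which passed the filter there only through the RT libraries. Nothing is read from either count. Over all kept cells Mmp2 (16.5 CPM in NT, against 61.6, 50.9 and 57.3 CPM in RT1 to RT3) and the neutrophil collagenase Mmp8 (0.780 CPM in NT, against 6.34, 8.01 and 10.4 CPM in RT1 to RT3) rose. Mmp2 also rose in tumor cells, in macrophages and, at its highest level, in fibroblasts (542 CPM in NT, against 1979, 2813 and 3079 CPM in RT1 to RT3), where Dpp4, the peptidase that trims Cxcl10 and Cxcl12, rose as well (49.3 CPM in NT, against 129, 223 and 128 CPM in RT1 to RT3), again in the class whose NT cells were rich in pericyte markers. Dpp4 had 5 UMIs in NT and passed the filter only through the RT libraries. In macrophages Mmp2 stood at 3.52 CPM in NT, against 12.6, 11.2 and 12.6 CPM in RT1 to RT3, while Rhox5 stood there at 189 CPM in NT, against 310.2, 252 and 366 CPM in RT1 to RT3 and the 8 fibroblast markers, led by Col3a1, summed to 190 CPM in NT, against 419, 327 and 390 CPM. In tumor cells the same 8 markers summed to 844 CPM in NT, against 1447, 1069 and 1298 CPM in RT1 to RT3. The part of all these markers, Rhox5 included, in the Mmp2 results was not tested. Monocytes showed a rise of Mmp8 (29.2 CPM in NT, against 63.7, 83.0 and 159.8 CPM in RT1 to RT3) and of Mmp9 (5.83 CPM in NT, against 89.4, 43.3 and 15.8 CPM in RT1 to RT3), the latter from 5 UMIs in NT. Mmp9 passed the filter there only through the RT libraries. Mmp8 is also 1 of the 9 listed neutrophil markers, all of which had UMIs in monocytes, with Il1r2 the most abundant. Their summed level in monocytes, given above beside Cxcl3, was higher in every RT library, and their part in the rise of Mmp8 and Mmp9 was not tested.

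To separate the kinds of cells present from the levels within them, each library's level was recomputed with the shares of UMIs per class held at those of NT. The result kept the direction seen over all cells in every RT library for 6 members, Cxcl1, Cxcl3, Cxcl10, Cxcl12, Ppbp and Pf4. For Cxcl10 this rested on a log2 ratio of 0.05 in RT1, and it was lost, leaving 5 members, with equal weight per cell, at a Leiden resolution of 0.4 and without integration. For Pf4 the log2 ratio was 2.83 ± 0.60 as measured, 1.44 ± 0.12 with the makeup held, and 1.42 ± 0.53 with the levels held at NT and the makeup left to vary (SD, n = 3). Both parts were thus of similar size. Ppbp gave 1.52 ± 0.93 and 1.29 ± 0.42, and Cxcl3 gave 1.17 ± 0.83 and 1.41 ± 0.43. Cxcl12 gave 0.66 ± 0.08 and 1.83 ± 0.54, and Cxcl10 gave 0.29 ± 0.21 and 0.69 ± 0.28. Behind the narrow spread of Cxcl12 with the makeup held lay classes that differed between libraries. In fibroblasts its log2 ratios were 0.01, -0.57 and 0.61 in RT1 to RT3. In endothelial cells it had 1 UMI in NT (5.64 CPM), against 128, 251 and 8.39 CPM in RT1 to RT3. For Cxcl1 the makeup counted for little, with -0.38 ± 0.22 when it was held and -0.03 ± 0.02 when it alone varied.

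In Cxcl9, Cxcl16 and the scarce Cxcl5 the mean parts opposed each other. With the makeup held, Cxcl9 was at -0.81 ± 0.65 and Cxcl16 at -0.76 ± 0.32, below NT in every RT library, while the makeup alone gave 1.31 ± 0.43 and 1.40 ± 0.48. Cxcl5 gave -0.77 ± 1.00 with the makeup held, RT3 lying above NT, and 0.86 ± 0.32 from the makeup alone. Their level over all cells, on either side of NT, lay between these. Cxcl2 stood at 0.06 ± 0.18 with the makeup held and at 0.57 ± 0.23 from the makeup alone. The unnamed clusters were kept as classes of their own in this calculation.

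**Figure D4:**
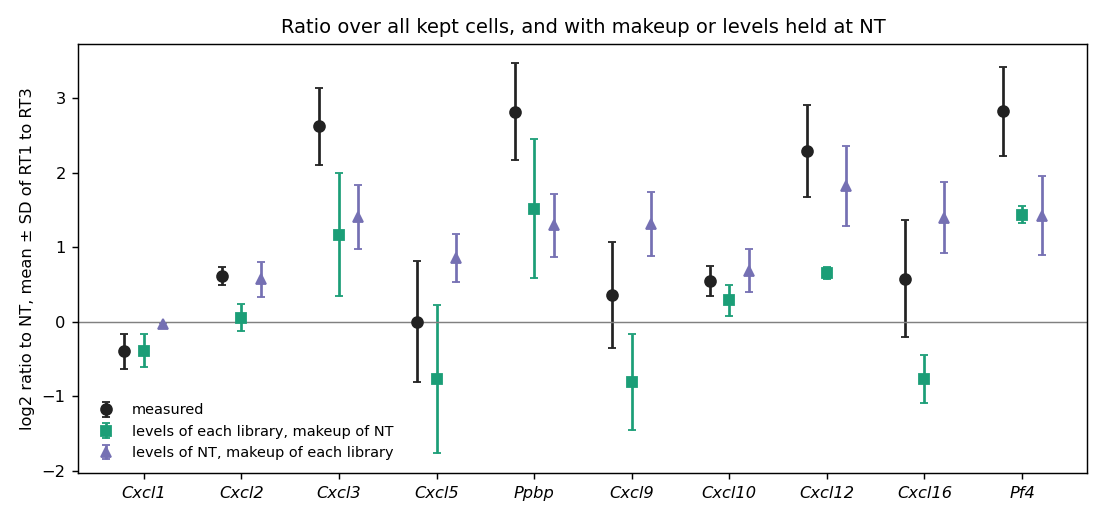
Log2 ratio of RT to NT over all kept cells for each CXC chemokine (y axis, mean and SD of RT1 to RT3), as measured, with the class makeup of NT, and with the levels of NT. For Cxcl5, Cxcl9 and Cxcl16 the mean parts lie on opposite sides of 0, and for Pf4, Ppbp and Cxcl3 both lie above it.

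Macrophages, monocytes and dendritic cells were next divided into 14 sub-clusters, 11 of which held at least 20 cells in every library. The 11 include a pair, led by Ccn1 and Dpt and by Ppic and Dusp9, in which 87.7% and 96.1% of the cells were likely doublets. Pf4 was higher in every RT library in 11 of the 11, and Ppbp in 7. Cxcl9 was lower in every RT library in 10, Cxcl16 in 10, Cxcl10 in 9 and Cxcl1 in 8. These sub-clusters share libraries and are not replicates, so the counts describe how widely a direction was seen. Of the genes read beside them, Cxcr4 and Il1b were lower in every RT library in 11 of 11 sub-clusters. Rhox5, the gauge of tumor-cell RNA, was higher in every RT library in 7, as many as for Ppbp, and lower in 0. Such counts were not made for all genes, so they are not read as particular to the members.

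The highest Cxcl9 level of these sub-clusters in RT was in macrophages with Folr2 and Lyve1 led by Lyve1, Cd209f and Ccl8 (248, 1045, 1037 and 556 cells in NT and RT1 to RT3), at 2293 CPM in NT, against 859.9, 1497 and 1616 CPM in RT1 to RT3. Cxcl10 in the same cells stood at 4763 CPM in NT, against 1673, 1555 and 3507 CPM in RT1 to RT3, with RT3 nearer to NT than RT1 and RT2. In monocytes led by Slfn4, Ifit1bl1 and Ly6c2, which carry interferon-induced genes, Cxcl10 stood at 7576 CPM in NT, against 5929.9, 6151 and 7430.4 CPM in RT1 to RT3, so RT3 nearly equalled NT. An unnamed sub-cluster led by Areg and Ppbp held Cxcl3 at 378 CPM in NT, against 1560.4, 715 and 2072 CPM in RT1 to RT3. RT3 was the highest and RT2 the lowest RT library there. Pf4 had its highest mean over the libraries in an unnamed sub-cluster led by Crip1 and Cd52, at 755 CPM in NT, against 2611, 1408 and 2082 CPM in RT1 to RT3. Mature dendritic cells with Ccr7 had the highest mean Cxcl16 level, 786 CPM in NT, against 618, 894 and 565 CPM in RT1 to RT3, from 17 cells in NT.

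Unnamed sub-clusters led by Ccn1 and Dpt, by Ppic and Dusp9, and by Steap2 and Cavin1 carried Rhox5 at 501 CPM or more in every library, and the first pair are the sub-clusters made up mostly of likely doublets. Without these 3 sub-clusters Pf4 in macrophages had a mean log2 ratio of 1.45 in place of 1.37.

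**Figure D5:**
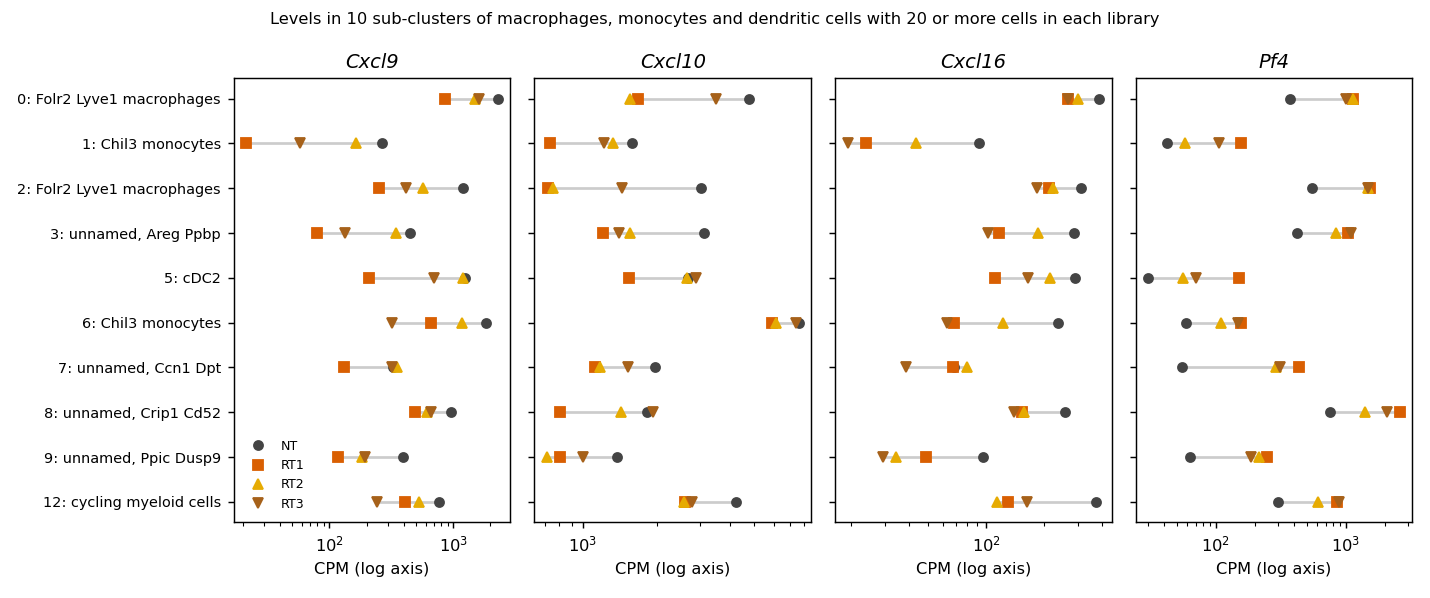
Levels of Cxcl9, Cxcl10, Cxcl16 and Pf4 (x axes, CPM, log) in 10 of the 11 sub-clusters of macrophages, monocytes and dendritic cells with 20 or more cells in each library (rows), 1 symbol per library. NT is the highest symbol in 9 rows for Cxcl9, 9 for Cxcl16 and 8 for Cxcl10, and the lowest in 10 rows for Pf4.

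Whether members were found in the same cells was read after thinning each cell to 1000 UMIs. Of 6 pairs of members in tumor cells, macrophages and monocytes, 16 combinations had at least 10 cells with the first gene in every library, and in 13 of these the second gene was more frequent in cells with the first gene than in cells without it in all 4 libraries. In macrophages Cxcl3 was found in 34.6%, 38.2%, 35.3% and 54.9% of cells with Ppbp in NT and RT1 to RT3, and in 4.96%, 9.35%, 7.20% and 15.2% of cells without it. Cxcl10 was found in 66.7%, 51.3%, 48.9% and 65.2% of macrophages with Cxcl9 and in 45.9%, 28.4%, 28.2% and 35.8% of those without. Monocytes with Pf4 held Ppbp in 25.0%, 29.1%, 23.1% and 43.7% of cases, those without it in 1.86%, 3.87%, 1.98% and 3.92%. Cells of 1 library are not replicates, and the sub-clusters differ in both genes of each pair. The 6 pairs are a selection from all pairs of members, and likely doublets were left in. No such count was made for pairs of other genes, so 13 of 16 is not read as particular to the members.

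The genes with a pattern most like that of each member were sought over 31 combinations of class and library, by Pearson's r of log2(CPM + 1) among 12604 genes. These points share libraries and classes, so r is a description. Pf4 was closest to C1qb (r = 0.96), C3ar1 and F13a1, genes of resident macrophages, and Cxcl16 to Ly86 (0.95), Aif1 and Gm2a. Cxcl3 was closest to Clec4e (0.95), Tarm1 and Clec4d, receptors of activated myeloid cells, and Cxcl2 to Tpd52 (0.94), Cd14 and Fpr2. Cxcl12 was closest to Tmem100 (0.96), Sulf1 and Postn, and Cxcl10 to Ifih1 (0.87), a sensor of viral RNA, Gbp4 and Cstf2t. The leading genes were Zfhx3 (0.87), Asph and Anxa1 for Cxcl1, Ctsk (0.84), Gpx3 and Mmp27 for Cxcl5, Lifr (0.89), Phf11d and Gngt2 for Cxcl9, and Slc43a2 (0.87), Gm36161 and Plin2 for Ppbp. Between members r was 0.92 for Cxcl2 with Cxcl3 and 0.80 for Ppbp with Pf4, but -0.69 for Cxcl1 with Cxcl10.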

How the data were processed

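Libraries were made per tumor suspension with the SeekOne 3′ kit. The submitters' processing notes name STAR 2.5.1b, Subread 1.6.4, featureCounts and Cell Ranger with GRCm39 (mm39), without their order. The authors deposited a table of UMI counts per gene and barcode for each library, and the unit used throughout is these counts. The table of RT2 lists only 18605 genes, those used here for all libraries, while the others list 32285, and its highest mitochondrial share in a barcode is 12.0%. Reads of near-identical chemokine genes may be split by that counting.

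Barcodes were kept from 200 genes upward and up to a mitochondrial share of 20% (9976 of 10141, 15029 of 15346, 14993 of 14994 and 15060 of 15324 barcodes in NT and RT1 to RT3). Counts were scaled to 10000 per cell, and 2000 variable genes and 30 principal components, integrated over libraries by a Harmony-type correction, were clustered by Leiden (resolution 0.8; igraph 0.11.9, leidenalg 0.10.2, Python 3.11.15). Names were given from marker lists, by a rule that was settled after the clusterings had been seen. Doublets were left in, with an alternative that removed 8% of cells, those scoring highest against simulated doublets. Counts were summed per library and class. NT is 1 library, so genes were called by a log2 ratio of 1 or more in each RT library, among genes with at least 10 expected UMIs, fewer than 3 UMIs being read as 3. This was tested on simulated data, and the outcome is not reported here. TMM factors (edgeR 4.0.16) served as an alternative.

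The members and lists were chosen with earlier results of these data known. Named in the text are all members, other CXC ligands, receptors and scavengers, the members of other lists that passed the rule of size (up to 3 per class and direction), the 3 genes most like each member, and the most abundant markers. Which sub-clusters are described was chosen after their values were seen. The values of 1 macrophage sub-cluster are not reported here, though it is counted among the 11.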

Additional observations from a re-analysis of the deposited data

Results flagged for a closer look

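For 3 members, every RT library lay above NT in some classes and below it in others. No difference between classes was tested, because NT is 1 library. Cxcl1 was above NT in fibroblasts, at a mean log2 ratio of 0.62, and below it in tumor cells at -0.41, in monocytes at -0.65 and in neutrophils at -0.98. Cxcl2 was above NT in neutrophils at 0.99, in dendritic cells at 1.5, in lymphocytes at 1.18, in fibroblasts at 2.56 and in endothelial cells at 1.48. It was below NT only in macrophages, at -0.07, where the sign depended on the processing. Cxcl10 was above NT in tumor cells at 0.71, in neutrophils at 1.73, in dendritic cells at 0.59 and in lymphocytes at 0.76. It was below NT in macrophages at -1.11, in monocytes at -0.52, in fibroblasts at -0.58 and in endothelial cells at -0.17. The NT values of neutrophils and fibroblasts came from 20 and 18 cells. Cxcl2 had 6 UMIs in NT fibroblasts and 13 in NT endothelial cells, and it passed the filter in both only through the RT libraries. As given above, the ratio of Cxcl1 in neutrophils was smaller in size without likely doublets. That of Cxcl10 in neutrophils was smaller with equal weight per cell, and Cxcl2 in lymphocytes did not pass without the sub-clusters led by Cp and by Lyz2.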

How the results depend on the processing

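Over all kept cells the same 4 members, Cxcl3, Ppbp, Pf4 and Cxcl12, passed under all alternatives run. The mean log2 ratios of single members gave 863 recomputed values, of which 812 lay within the spread of the RT libraries, 51 moved further and 0 reversed a call. In macrophages Pf4 stayed between 1.33 and 1.45. Counting cells equally took the number of members past the rule from 1 to 3 in tumor cells from 2 to 1 in fibroblasts and from 3 to 2 in lymphocytes, where a limit of 10% mitochondrial UMIs and a minimum of 500 genes also left 2, and the number with the same leading class from 3 to 5. A threshold of 0.58 gave 3 in tumor cells, 3 in macrophages, 2 in dendritic cells, 2 in endothelial cells and 14 listed genes in place of 9. With 30 expected UMIs 0 members passed in neutrophils, 0 in dendritic cells, 1 in lymphocytes and 1 in fibroblasts. Without integration 2 passed in macrophages and 0 in monocytes, and 5 members in place of 8 kept the same main source. A minimum of 500 genes per cell gave 1 in monocytes, a Leiden resolution of 0.4 gave 0 in dendritic cells, TMM gave 1 in fibroblasts, and removal of the highest doublet scores gave 0 in lymphocytes, as did leaving out the lymphocyte sub-clusters led by Cp and by Lyz2, an alternative chosen after seeing the data. TMM moved the median log2 ratio of all genes from -0.12 to 0.41 in neutrophils, from -0.16 to 0.04 in fibroblasts and from -0.15 to -0.02 in lymphocytes. Leaving out each RT library in turn gave 1 to 2 members past the rule in tumor cells, 1 to 3 in macrophages, 2 to 5 in monocytes, 0 to 2 in dendritic cells, 1 to 4 in lymphocytes and 0 to 2 in endothelial cells. Calls could end while a count stayed the same. Cxcl10 no longer passed in neutrophils with equal weight per cell or without the highest doublet scores, where Cxcl2 passed instead. Cxcl9 was the call lost in fibroblasts under TMM and equal weight per cell, Cxcl3 that lost in dendritic cells without RT3, Cxcl3 and Pf4 those lost in lymphocytes without RT1, and Pf4 that lost in monocytes at 500 genes per cell. The causes were not tested. Without RT2 the members past the rule in monocytes were Cxcl3, Ppbp, Pf4, Cxcl9 and Cxcl16. The co-detection count was 13 of 16 at 1000 UMIs, 12 of 15 at 500 and 11 of 17 at 2000.

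No paired analysis was possible because NT is 1 pooled library and shares at most 1 replicate number with RT. With 1 NT library the spread between non-irradiated tumors cannot be separated from the effect of radiation, and in neutrophils and fibroblasts of NT the depth, 28156 and 101506 UMIs, limits every ratio.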

Other observations

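Cxcl10 was the member with the highest level among lymphocytes. Of 11 lymphocyte sub-clusters, 6 held 20 or more cells in every library, and Cxcl10 was higher in every RT library in 6 of these 6. They include the sub-cluster led by Cp and Col6a2, genes not typical of lymphocytes. The same count was not made for all genes, so it is not read as particular to Cxcl10. The highest level was in an unnamed sub-cluster led by Ifit1bl1, Ifit3 and Ifit3b (64, 41, 77 and 39 cells in NT and RT1 to RT3), at 8408 CPM in NT, against 17823, 11520.4 and 16095 CPM in RT1 to RT3. NK cells had 3343 CPM in NT, against 4571, 3697 and 5733 CPM in RT1 to RT3 and regulatory T cells, led by Foxp3, had 2506 CPM in NT, against 6669.9, 5486 and 4917 CPM in RT1 to RT3. In each of these all RT libraries lay above NT. The receptor Cxcr6 stood at 773 CPM in NT, against 546, 525 and 251 CPM in RT1 to RT3 in a sub-cluster led by the mast-cell genes Cpa3, Cma1 and Hdc and by Cd8a, and RT3 was the lowest library. Cxcr3 in regulatory T cells rested on 16, 4, 13 and 2 UMIs, too few to order the libraries. Cxcr4 was highest in the interferon-led sub-cluster, at 2072 CPM in NT, against 2271, 2546 and 1100.0 CPM in RT1 to RT3.

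The cluster led by Lum, Pthlh and Nppc, which kept no name, also held Cxcl2 at 1229.7 CPM in NT, against 1278, 1125 and 1794 CPM in RT1 to RT3 and Cxcl10 at 620.4 CPM in NT, against 794, 917 and 1023 CPM in RT1 to RT3. Cxcl10 was higher there in every RT library.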
